A study of Mus musculus with 6 samples.

Results

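The 10 genes described here are the mouse glycosyltransferases that build and extend mucin O-glycans, with the chaperone of one of them. They were taken from the gene table by symbol (C1galt1, C1galt1c1, Gcnt1, Gcnt3, B3gnt6, St3gal1, St3gal2, St6galnac1, Galnt3 and Fut2), and all 10 were among the 27202 genes listed. The colon was profiled by RNA-seq in 3 libraries named cKO (genotype Nedd4l fl/fl Villin Cre) and in 3 libraries from littermates named WT (genotype Nedd4l fl/fl). All mice were 8 to 10 weeks old on a C57BL/6J background, and all drank 2% DSS (dextran sulfate sodium), which damages the lining of the colon, until tissue was taken on day 7. Both genotypes carried the floxed Nedd4l allele. Cre, driven by the Villin promoter in the intestinal epithelium from development on, was present only in the cKO group, so an effect of Cre itself and the loss of Nedd4l cannot be told apart. No untreated colon was measured in these 6 libraries. The labels do not say that each library came from its own mouse, so the p-values below measure only the spread between these libraries, which may be technical.

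Mucin O-glycans begin in the Golgi, where polypeptide GalNAc transferases such as GALNT3 attach GalNAc to serine or threonine. Adding galactose to it gives core 1, the work of C1GALT1, which folds only with its chaperone COSMC (the product of C1galt1c1). Adding GlcNAc to the GalNAc instead gives core 3, the work of B3GNT6. Core 1 is branched into core 2 by GCNT1 or GCNT3, of which GCNT3 also branches core 3 into core 4. Sialic acid then caps core 1 on its galactose (ST3GAL1 and ST3GAL2) or its GalNAc side (ST6GALNAC1), and FUT2 adds the terminal fucose that makes H antigens on colonic mucins. These glycans hold water in the mucus gel, shield mucins from proteases and feed gut bacteria.

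Values are normalized counts, meaning that each gene's reads were scaled by a size factor of the library, and they were compared as log2(normalized count + 1) with limma over the 16246 genes whose mean reached 10. In units of the smallest value of each library, the libraries summed to 14914367 to 17547270. Nedd4l, the deleted gene, stood at 476, 942 and 566 in cKO replicates 1, 2 and 3 and at 1241, 1271 and 1266 in the WT replicates (two-sided exact permutation p = 0.10, and no smaller p can be reached with 3 against 3). Its log2 difference was −0.99 (SE 0.24, adjusted p = 0.225 from limma). Replicates 1 and 2 of cKO stood apart. cKO replicate 2 had a mean correlation over all tested genes of 0.977 with the WT libraries and 0.966 with its own group, while cKO replicate 1 was the least like the WT libraries (0.948). Across all genes, 0 of 16246 (0.0%) passed an adjusted p of 0.05 in limma, the smallest adjusted p being 0.111, although 1122 genes were higher and 1151 lower in cKO at an unadjusted p under 0.05. A second limma fit gave each library a weight by how well it followed the model. It weighted cKO replicate 3 at 4.39, cKO replicates 1 and 2 at 0.41 and 0.56 and the WT libraries at 0.79 to 1.34, so its cKO values rest mostly on 1 library. That weighted fit called 262 genes higher (1.61%) and 369 lower (2.27%). The 10 genes were proposed with this genotype difference in view, so the differences and limma values given for them below are descriptions and not an independent test.

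The members covered a wide range of levels. Divided by gene length, Fut2 had the highest level, with a mean of 1260.5 normalized counts per kb over the 6 libraries (lowest 803, highest 1629), followed by C1galt1 at 809 and its chaperone gene C1galt1c1 at 516. Galnt3 stood at 391, Gcnt3 at 210.3 and Gcnt1 at 171 normalized counts per kb. The sialyltransferase genes St3gal1 and St3gal2 were lower, at 55.7 and 28.3, and B3gnt6, which encodes the core 3 synthase, was at 12.2. St6galnac1 was close to the limit of detection at 1.22 normalized counts per kb. Set against the 13922 tested protein-coding genes by level per kb, Fut2 lay above 95.9% of them, C1galt1 above 93.1%, Gcnt1 above 66.7%, St3gal2 above 24.3% and B3gnt6 above 13.3%.

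Each gene in this order was compared with the next one within libraries, which gave 9 pairs. In 7 pairs the order was the same in all 6 libraries (two-sided exact sign-flip permutation p = 0.03125, the lowest possible with 6 libraries, and adjusted p = 0.0402 over the 9 pairs). The order was set from the same 6 libraries, both genotypes together, so the test describes only how steady each step was across them. An error in a gene length would be the same in every library and cannot be seen by it. For Fut2 and C1galt1 the order held in 5 of 6 libraries and the test missed the threshold. The log2 difference of their levels per kb was 0.62 ± 0.31 (SD, n = 6), with WT replicate 1 at −0.0071 (exact permutation test, adjusted p = 0.0703). The order also held in 5 of 6 libraries for Gcnt3 and Gcnt1, at 0.27 ± 0.31 (SD, n = 6, exact permutation test, adjusted p = 0.0938), where WT replicate 2 had more Gcnt1 than Gcnt3. The core 1 synthase gene had a far higher level than the core 3 synthase gene in every library. The ratio of C1galt1 to B3gnt6 per kb was 59.5, 93.0 and 93.3 in the cKO replicates and 71.8, 55.5 and 48.5 in the WT replicates, with overlapping groups. Levels of mRNA per kb in whole tissue are not amounts of enzyme.

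**Figure D1:**
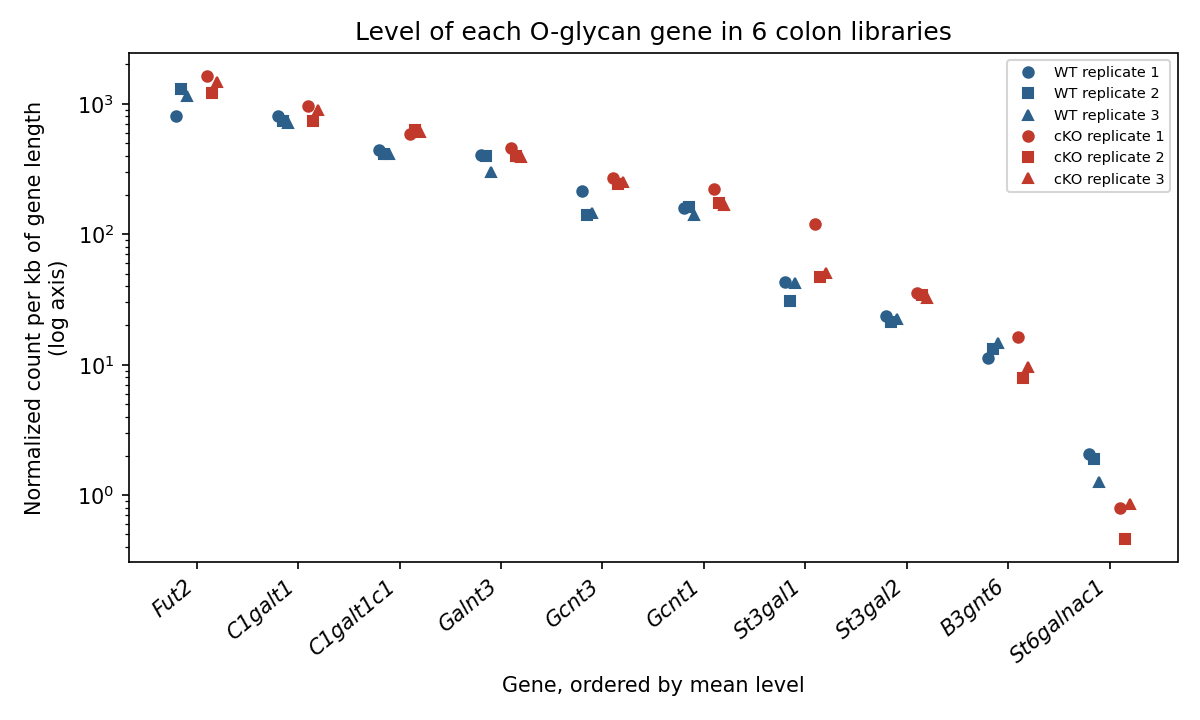
Normalized count per kb of gene length (log axis) for the 10 genes, ordered by mean level, with 1 point for each of the 3 WT (blue) and 3 cKO (red) libraries. Levels run from Fut2, at 803 to 1629, down to St6galnac1, at 0.462 to 2.06, and the order of neighbouring genes is the same in all 6 libraries for 7 of 9 pairs.

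Galnt3 encodes one of the transferases that add the first GalNAc, and lies on the minus strand of chromosome 2 of GRCm38 from 66082766 to 66124994 (ENSMUSG00000026994). It had 1999, 1729 and 1724 normalized counts in cKO replicates 1, 2 and 3 and 1765, 1734 and 1317 in WT replicates 1, 2 and 3. The groups overlapped, and WT replicate 3 was the lowest library. cKO averaged 1817 ± 157 and WT 1605 ± 249.98 (SD, n = 3 each), a log2 difference of 0.19 (SE 0.13, adjusted p = 0.522 from limma). That difference was 0.05 without WT replicate 3 and 0.12 without cKO replicate 1.

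C1galt1, the core 1 synthase gene (ENSMUSG00000042460, plus strand of chromosome 6 from 7844842 to 7875687), had 5857, 4493 and 5442 normalized counts in the cKO replicates and 4917, 4490 and 4354 in the WT replicates. cKO replicate 2 sat among the WT libraries, so the groups overlapped. The log2 difference was 0.19 (SE 0.11, adjusted p = 0.457 from limma), 0.11 without cKO replicate 1 and 0.30 without cKO replicate 2. A second listed gene on the same strand, Gm43961, overlaps C1galt1 but averaged only 11.4 and 2.16 normalized counts in cKO and WT. A pseudogene on the opposite strand, Gm43962, also overlaps it and averaged 23.7 and 17.8.

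C1galt1c1, which encodes the COSMC chaperone (ENSMUSG00000048970, minus strand of chromosome X from 38630785 to 38635087), behaved more evenly within each genotype. It stood at 855, 908 and 883 normalized counts in the cKO replicates and at 642, 599 and 599 in the WT replicates. All cKO libraries lay above all WT libraries, and the gap between the groups was wider than the spread within either. cKO averaged 882 ± 26.3 and WT 613 ± 24.7 (SD, n = 3 each), 43.8% higher in cKO, with a log2 difference of 0.52 (SE 0.08, adjusted p = 0.123 from limma). C1galt1c1 had the smallest adjusted p of the 9 tested members, and its difference stayed between 0.50 and 0.56 when any 1 library was left out. Its adjusted p was 0.0124 in the weighted limma fit, which leans on cKO replicate 3, and 0.486 without that library. Within each library, the ratio of the chaperone gene to the synthase gene per kb was 0.614, 0.849 and 0.682 in the cKO replicates and 0.549, 0.561 and 0.579 in the WT replicates. The 3 cKO ratios were the highest, and the largest belonged to cKO replicate 2.

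Gcnt3 encodes the mucin-type core 2 and core 4 branching enzyme (ENSMUSG00000032226, minus strand of chromosome 9 from 70031496 to 70038088). The gene had normalized counts of 1168, 1035 and 1086 in the cKO replicates and 918, 600.1 and 621 in the WT replicates. The groups did not overlap, although WT replicate 1 lay closer to the cKO libraries than to the other WT libraries. cKO averaged 1096 ± 66.9 and WT 713 ± 178 (SD, n = 3 each), 53.7% higher in cKO, with a log2 difference of 0.65 (SE 0.16, adjusted p = 0.219 from limma). It was 0.84 without WT replicate 1, 0.53 without WT replicate 2, and its adjusted p from limma was 0.0426 in the weighted fit and 0.513 without WT replicate 2. The ratio of Gcnt3 to C1galt1 per kb was 0.282, 0.326 and 0.283 in the cKO replicates and 0.265, 0.189 and 0.202 in the WT replicates, again without overlap. The ratios of Gcnt3 to Gcnt1, of St3gal1 to St3gal2 and of St3gal1 to C1galt1 overlapped between the groups. The share of ratios without overlap over all genes was not computed.

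Gcnt1, the gene of the more widely expressed core 2 enzyme (ENSMUSG00000038843, minus strand of chromosome 19 from 17326141 to 17356667 in the table), stood at 1239, 961 and 927 normalized counts in the cKO replicates and at 888, 905 and 784 in the WT replicates. The groups did not overlap, but cKO replicate 3 and WT replicate 2 were nearly level. The log2 difference was 0.27 (SE 0.13, adjusted p = 0.382 from limma), and 0.14 without cKO replicate 1. Gcnt1 has several annotated starts, which a count per gene cannot tell apart. The start at 17372844 lies outside the coordinates listed for the gene, and the start at 17356667 lies at their edge. The bases before these 2 starts are shown, because the 2 windows touch no annotated exon of Gcnt1. Both come from RefSeq on GRCm38.p6, read 5′ to 3′ on the minus strand and ending at the base before the start, and capitals mark TATAAA on either strand.
Gcnt1 start at 17372844, chr19:17372845-17373094: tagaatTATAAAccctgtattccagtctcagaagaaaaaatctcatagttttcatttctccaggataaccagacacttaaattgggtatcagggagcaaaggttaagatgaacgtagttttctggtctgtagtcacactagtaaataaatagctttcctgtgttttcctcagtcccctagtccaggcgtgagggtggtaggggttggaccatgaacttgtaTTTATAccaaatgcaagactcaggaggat
Gcnt1 start at 17356667, chr19:17356668-17356917: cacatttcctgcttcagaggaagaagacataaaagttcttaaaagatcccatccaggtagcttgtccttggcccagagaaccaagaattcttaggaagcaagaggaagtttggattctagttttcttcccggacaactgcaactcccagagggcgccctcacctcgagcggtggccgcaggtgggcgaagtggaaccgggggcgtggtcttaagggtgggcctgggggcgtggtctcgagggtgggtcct
The upstream window held TATAAA at 2 places, the nearer one on the opposite strand and 24 bases before the start, and had a GC content of 40.4%. The downstream window held none and had a GC content of 55.6%, against a median of 52.4% over 32851 windows of the same length. TATAAA occurred in 12.4% of those windows. Neither window held the GC box GGGCGG (32.7% of all windows), the CDX motif TTTATNG (9.81%), the STAT motif TTCNNNGAA (7.02%) or the NF-kB motif (7.25%), searched on both strands. The letters searched can overlap each other, as those for CDX do with the TATA letters on the opposite strand, and a match or its absence describes the letters only.

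B3gnt6, the core 3 synthase gene (ENSMUSG00000074004, minus strand of chromosome 7 from 98192417 to 98199481), was the only tested member with a lower mean in cKO. It stood at 38.3, 18.8 and 22.7 normalized counts in the cKO replicates and at 26.7, 31.5 and 34.9 in the WT replicates. cKO replicate 1 was the highest of all 6 libraries and the other 2 cKO libraries were the lowest, so the cKO libraries disagreed among themselves. The log2 difference was −0.27 (SE 0.33, adjusted p = 0.730 from limma), −0.56 without cKO replicate 1 and −0.06 without cKO replicate 2.

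St3gal2 (ENSMUSG00000031749, plus strand of chromosome 8 from 110919922 to 110972480) encodes a transferase that puts α2,3-linked sialic acid on the galactose of core 1. The libraries gave 177, 174 and 164 normalized counts in the cKO replicates and 119, 108 and 114 in the WT replicates. The groups did not overlap, and the libraries within each genotype lay close together. cKO averaged 172 ± 6.87 and WT 113 ± 5.29 (SD, n = 3 each), 51.3% higher in cKO, with a log2 difference of 0.59 (SE 0.15, adjusted p = 0.215 from limma) that stayed between 0.56 and 0.63 when any 1 library was left out. A noncoding gene on the opposite strand, Gm26816, overlaps it and averaged 20.6 and 13.9 normalized counts in cKO and WT. Whether the counting used strand is not stated.

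St3gal1, which acts on the same core 1 acceptor (ENSMUSG00000013846, minus strand of chromosome 15 from 67102875 to 67176830), had the largest difference and the least even libraries. It stood at 823, 324 and 347 normalized counts in the cKO replicates and at 297, 209.6 and 288 in the WT replicates. The groups did not overlap, but cKO replicate 1 was far above every other library. cKO averaged 498 ± 282 and WT 265 ± 48.0 (SD, n = 3 each), a log2 difference of 0.79 (SE 0.38, adjusted p = 0.406 from limma), which was 0.36 without cKO replicate 1. By profile over the 6 libraries, the 3 nearest of 11879 protein-coding genes with a mean of at least 50 were Mmp2, a matrix metalloproteinase of fibroblasts, Igfbp7 and Srgn, the proteoglycan of hematopoietic granules. Their root mean square differences from St3gal1 on the centred log2 scale were 0.086, 0.10 and 0.11, against a span of 1.97 for St3gal1 itself. Mmp2 had 1991 normalized counts in cKO replicate 1 and 566 to 873 in the other 5 libraries. Colonic tissue holds immune and stromal cells besides epithelium, so fewer or more cells of a type and less or more RNA per cell cannot be told apart for this or any other member.

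St6galnac1 encodes the transferase that adds α2,6-linked sialic acid to the GalNAc of mucins (ENSMUSG00000009588, minus strand of chromosome 11 from 116765025 to 116775507). It was the only member below the filter, at 1.92, 1.11 and 2.06 normalized counts in the cKO replicates and 4.94, 4.50 and 3.00 in the WT replicates. The 3 WT libraries were the highest, but each library held no more than 5 times its smallest value, so no fold or test is given. Of the related genes, St6galnac6 was at 15552 ± 1189 (SD, n = 3) and 16014 ± 396 (SD, n = 3) normalized counts in cKO and WT. The main St6galnac2 entry (ENSMUSG00000057286) was at 506 ± 108 and 652 ± 41.6 (SD, n = 3 each), with a log2 difference of −0.39 (adjusted p = 0.352 from limma) and all cKO libraries below all WT libraries. A second entry of the same symbol overlaps it, so its reads are uncertain.

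Fut2, the α1,2-fucosyltransferase gene (ENSMUSG00000055978, minus strand of chromosome 7 from 45648591 to 45666394), had 8845, 6624 and 7979.6 normalized counts in the cKO replicates and 4362, 7049 and 6214 in the WT replicates. The groups overlapped because WT replicate 2 exceeded cKO replicate 2, and WT replicate 1 was the lowest library. cKO averaged 7816 ± 1119 and WT 5875 ± 1375 (SD, n = 3 each), a log2 difference of 0.43 (SE 0.19, adjusted p = 0.370 from limma), which was 0.23 without WT replicate 1. Its 3 nearest profiles among the same 11879 genes were those of Nfasc, 1600014C10Rik and Oasl2, an interferon-stimulated gene, with root mean square differences of 0.069, 0.071 and 0.090. Oasl2 stood at 2462, 1606 and 1861 normalized counts in the cKO replicates and at 1068, 1803 and 1439.9 in the WT replicates, so WT replicate 1 was the lowest library there too. Fut1, which encodes the other α1,2-fucosyltransferase, was at only 38.2 ± 9.63 and 48.6 ± 12.4 normalized counts (SD, n = 3 each) in cKO and WT.

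Of the 9 tested members, 8 had a higher mean in cKO and 1 a lower one, where 50.2% of all tested genes were higher. All 3 cKO libraries lay above all 3 WT libraries for 5 of them (C1galt1c1, Gcnt1, Gcnt3, St3gal1 and St3gal2) against 10.5% of all tested genes, and 3 of them (C1galt1c1, Gcnt3 and St3gal2) were higher at an unadjusted p under 0.05 in limma against 6.91%. None was lower without overlap (10.9% of all tested genes) or at an unadjusted p under 0.05 (7.08%). None of the 9 passed an adjusted p of 0.05 in limma (0.0% of all genes). These counts describe genes picked with the same comparison known, and nothing is read from their excess over the background. The median log2 difference of the 9 members was 0.43, while that of all tested genes was 0.0013. In cKO replicate 1 lay the highest value of 8 of the 9 members, the exception being C1galt1c1. Among the members, C1galt1c1 and St3gal2 had the most similar profiles over the libraries (root mean square difference 0.063), and Gcnt3 and B3gnt6 the least similar (0.60).

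**Figure D2:**
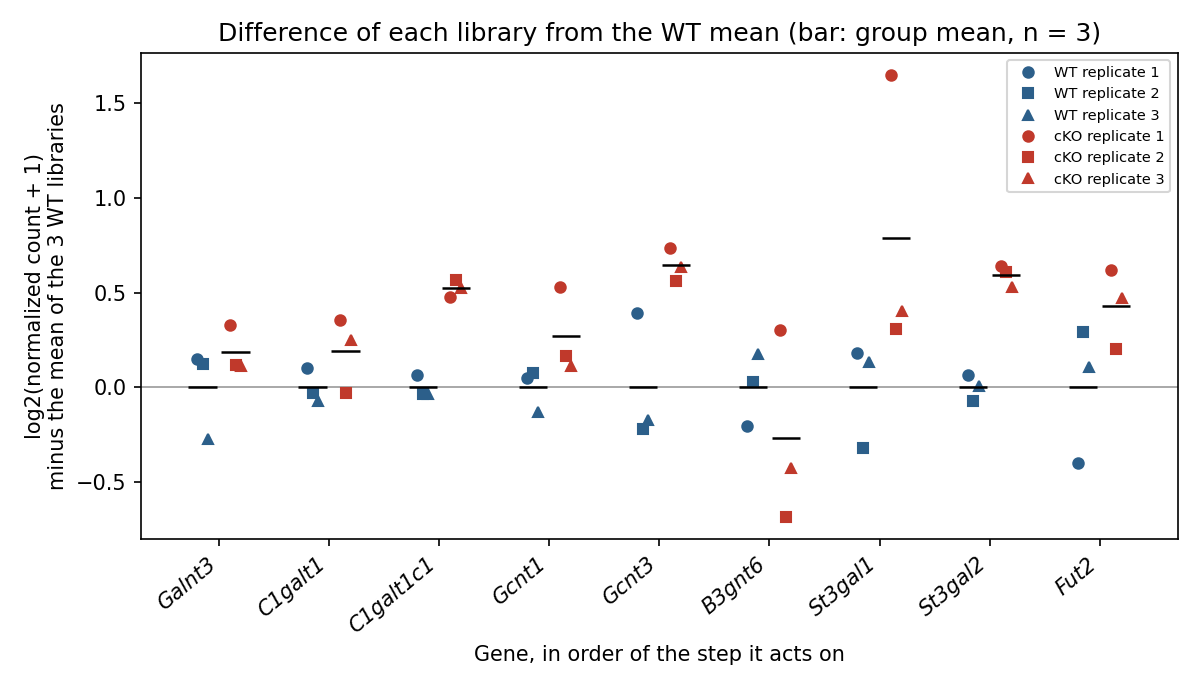
Log2(normalized count + 1) of the 9 tested members in each library, minus the mean of the 3 WT libraries, in the order of the step each enzyme acts on (blue WT, red cKO, bars are group means of 3 libraries). C1galt1c1 and St3gal2 have tight, separate groups, whereas the cKO mean of St3gal1, 0.79, is carried by cKO replicate 1 at 1.65.

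The rest of the pathway was taken from 6 lists of 81 genes in all, of which 75 entries were listed and 68 were tested. Of these, 23 were higher and 45 lower in cKO, with a median log2 difference of −0.09. None passed an adjusted p of 0.05 in limma (0.0% of all tested genes). At an unadjusted p under 0.05 in limma, 6 were higher and 5 lower, against 6.91% and 7.08% of all tested genes. Without overlap of the groups, 7 were higher and 7 lower, against 10.5% and 10.9% of all tested genes. Among other GalNAc transferase genes, 6 of 12 were higher and 6 lower (median 0.04). Galnt12 had the smallest p, at 1841 ± 83.7 and 1533 ± 88.6 normalized counts (SD, n = 3 each) in cKO and WT, a log2 difference of 0.26 (adjusted p = 0.278 from limma) without overlap. Galnt4 and Galnt7, whose enzymes act on acceptors that often already carry GalNAc, were at −0.08 and −0.09 on the log2 scale, and Galnt1, a broadly expressed initiating transferase gene, was at 0.19.

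Other chain extension and branching genes were also evenly divided, with 6 higher and 6 lower of 12 (median log2 difference 0.04). B4galt1, the galactosyltransferase gene for type 2 chains, stood at 3766 ± 410.0 and 2806 ± 288 normalized counts (SD, n = 3 each) in cKO and WT, a log2 difference of 0.42 (adjusted p = 0.232 from limma). Gcnt2, which encodes the I-branching enzyme, stood at 780.2 ± 295 and 435 ± 44.9, with a difference of 0.78 (adjusted p = 0.292 from limma). The groups did not overlap for either gene. B3galt5, which encodes the type 1 chain galactosyltransferase and was abundant, was at 19821 ± 839 and 17922 ± 854 (0.15, adjusted p = 0.432 from limma), and B4galnt2, whose enzyme makes the Sda antigen, was at 0.19 (adjusted p = 0.346 from limma), again without overlap. B3gnt3, an enzyme gene for extending core 1, was at 0.10 and B3gnt7 at −0.13. Gcnt4, another core 2 enzyme gene, was at 212, 27.6 and 80.5 normalized counts in the cKO replicates and at 86.9, 73.8 and 63.9 in the WT replicates. cKO replicate 1 was the highest library and cKO replicate 2 the lowest. The log2 difference of Gcnt4 was 0.07, −0.64 without cKO replicate 1 and 0.81 without cKO replicate 2.

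Of 10 other sialyltransferase entries 3 were higher and 7 lower (median log2 difference −0.13), and of 8 other fucosyltransferase and sulfotransferase genes 2 were higher and 6 lower (median −0.38). Without cKO replicate 1 these medians were 0.019 and −0.11. St3gal4 and St3gal6, which cap other galactose ends, were at −0.21 and −0.43, and in both cKO replicate 1 was the lowest library. Without it they were at 0.069 and −0.0042. St3gal3 was at −0.31 (adjusted p = 0.487 from limma). Fut4 was at −0.20 and at −0.030 without cKO replicate 1, and Chst4, a GlcNAc sulfotransferase gene, at −0.42 (adjusted p = 0.301 from limma). Fut9 was at −1.24 with 154 ± 87.7 and 311 ± 30.7 normalized counts (SD, n = 3 each, adjusted p = 0.370 from limma). Its libraries stood at 53.7, 214 and 195 in the cKO replicates and at 278, 339 and 317 in the WT replicates, so cKO replicate 1 was far below the others. Of 18 genes for donor sugars and Golgi transporters, 4 were higher and 14 lower (median −0.14). Slc35a1, the Golgi transporter of CMP-sialic acid, had 2345 ± 179 and 3004 ± 167 normalized counts (SD, n = 3 each), a log2 difference of −0.36 (SE 0.09, adjusted p = 0.211 from limma), with every cKO library below every WT library. In the weighted limma fit it was at −0.36 (adjusted p = 0.0310). Slc35a3, the UDP-GlcNAc transporter gene, was at −0.31 (adjusted p = 0.291 from limma), also without overlap, and Slc35c1, the GDP-fucose transporter gene, at −0.10.

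Mucins carry these glycans. Of 8 tested mucin genes, 2 were higher and 6 lower in cKO (median log2 difference −0.06). That median was 0.16 in the weighted fit and 0.12 without cKO replicate 1. Muc2, the gel-forming mucin of the colon, stood at 44542 ± 11714 and 45401 ± 1644 normalized counts (SD, n = 3 each) in cKO and WT, a log2 difference of −0.06 (adjusted p = 0.897 from limma) that was 0.16 without cKO replicate 1 and −0.23 without cKO replicate 2. Muc13, a transmembrane mucin, was at −0.07 (adjusted p = 0.862 from limma), Muc1 at −0.14, Muc3 at −0.59 (adjusted p = 0.313 from limma) and Muc4 at 0.29 (adjusted p = 0.348 from limma). For comparison, 20 genes of N-glycan processing, another Golgi pathway, had 12 higher and 8 lower (median 0.04). The difference between the members and any of these lists was not tested, since the members were chosen on it.

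**Figure D3:**
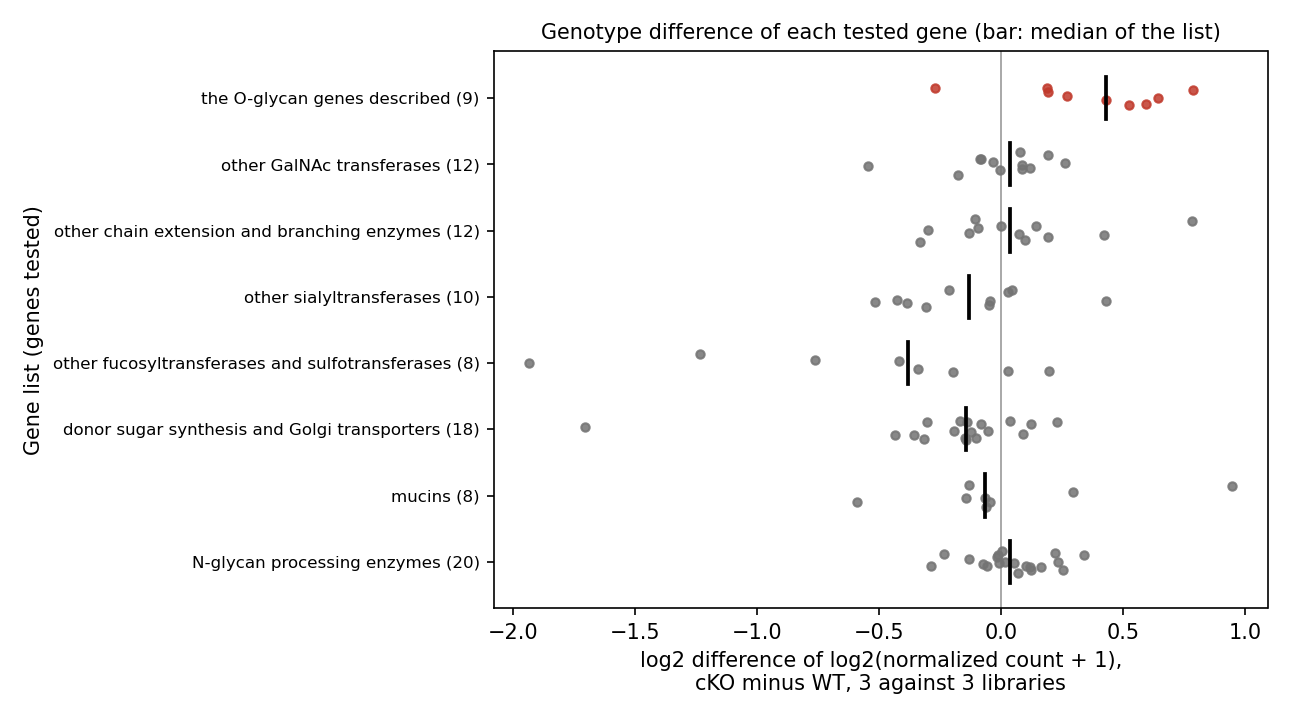
Log2 difference between cKO and WT of every tested gene, 1 point per gene, by list, with the number of genes tested in brackets and a black bar at the median of each list. The median is 0.43 for the 9 tested members, which were proposed with this difference known, and between −0.38 and 0.04 for the other 7 lists.

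Markers of the cell types in the tissue differed between libraries. The epithelial markers were present. Epcam stood at 23179 ± 1499 and 21424 ± 391 normalized counts (SD, n = 3 each) in cKO and WT, and the colon transcription factor gene Cdx2 at 2100.4 ± 381 and 2173 ± 74.5. Of 12 pan-epithelial markers 3 were higher and 9 lower in cKO (median log2 difference −0.07), with summed levels of 240770 to 281892 in cKO and 265060 to 284998 in WT. Goblet cell markers, 12 of 12 tested, were 6 higher and 6 lower (median −0.02, which was 0.34 without cKO replicate 1 and −0.28 without cKO replicate 2) and summed to 105249 to 478324 in cKO and 169395 to 331620 in WT, overlapping. Among these markers, Spdef was at 0.03, Agr2, a mucin folding factor, at 0.06 and Atoh1 at −0.52 (adjusted p = 0.337 from limma). Atoh1 was the only 1 of the 12 without overlap, and 10.9% of all tested genes were lower without overlap. Colonocyte markers (4 higher and 6 lower of 10, median −0.28, which was −0.079 without cKO replicate 3) summed to 226434 to 317928 in cKO and 257751 to 273402 in WT. The distal colon genes, 5 of 7 tested, were 1 higher and 4 lower (median −0.23, which was 0.066 without cKO replicate 1). Their summed level was 3351 in cKO replicate 1, against 6127 and 6679 in the other cKO libraries and 5614 to 6358 in WT, and Hoxd12 was near 0 throughout.

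Leukocyte markers were higher in 11 of 12 (median log2 difference 0.36) and summed to 37982 to 49964 in cKO and 25611 to 46982 in WT. Most of that sum was Jchain, at a mean of 32201 and 30407 normalized counts in cKO and WT (log2 difference 0.12). The log2 difference was largest for S100a9 (4.35), S100a8 (3.70) and Csf3r (1.43). It was 0.27 for Ptprc and −0.45 for Cd3e, the only marker that was lower. The mean log2 distance of the 12 leukocyte markers from the WT mean was 1.77, 0.34 and 0.86 in cKO replicates 1, 2 and 3. Fibroblast and endothelial markers were higher in 8 of 8 (median 0.73, which was 0.33 without cKO replicate 1) and summed to 21839 to 44268 in cKO, the top value being that of cKO replicate 1, and to 11092 to 18984 in WT, without overlap. Smooth muscle markers were lower in 7 of 7 (median −0.47, which was 0.12 without WT replicate 2 and 0.14 in the weighted fit) but summed to 4966 to 21499 in WT alone, a span that holds all cKO libraries. Crypt stem and cycling markers were 1 higher and 8 lower of 9 (median −0.47, which was −0.16 without cKO replicate 1), summing to 14877 to 16193 in cKO and 17387 to 18653 in WT. cKO replicate 1 had the highest leukocyte score, the highest fibroblast and endothelial score, and the lowest smooth muscle score, at −1.07. It also had the lowest goblet cell (−0.80), colonocyte (−0.60), pan-epithelial (−0.16) and crypt stem and cycling (−0.63) scores. That library was also the highest for 8 of 9 members and the one that carried St3gal1. Without it, the log2 difference was 0.36 for St3gal1, 0.14 for Gcnt1, 0.11 for C1galt1, 0.12 for Galnt3, 0.34 for Fut2 and −0.56 for B3gnt6, and 0.55, 0.60 and 0.57 for C1galt1c1, Gcnt3 and St3gal2. The other cKO libraries had fibroblast and endothelial scores of 0.43 and 0.48, close to WT replicate 1 at 0.41, with WT replicates 2 and 3 at −0.42 and 0.0042. The part of cell composition in the members' values was not tested.

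**Figure D4:**
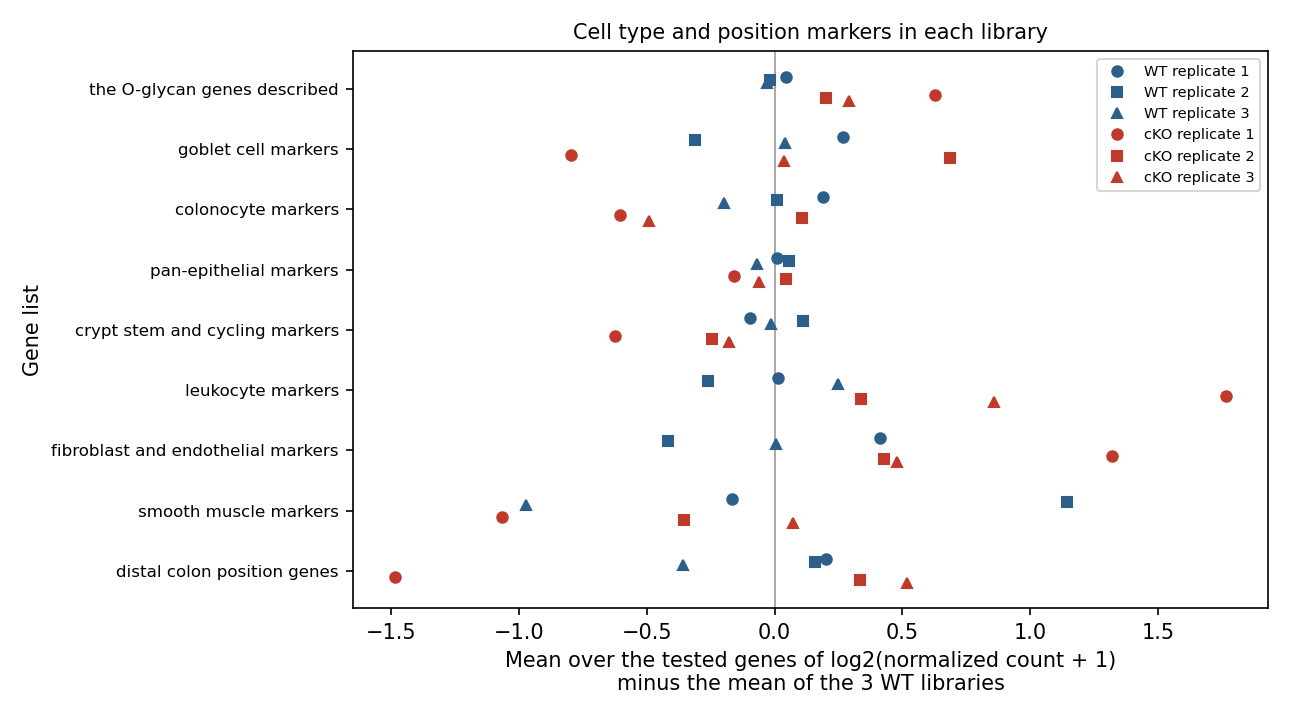
Mean over the tested genes of each list of log2(normalized count + 1) minus the mean of the 3 WT libraries, with 1 point per library (blue WT, red cKO). cKO replicate 1 lies at 1.77 for leukocyte markers, 1.32 for fibroblast and endothelial markers and −1.49 for distal colon genes, and at 0.63 for the O-glycan genes described, above the other 5 libraries at −0.03 to 0.29.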

How the data were processed

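The authors deposited 1 table of normalized counts, a signal made by dividing reads per gene by 1 size factor per library, with columns for 6 libraries, 3 of each genotype, and the authors' genotype means. The deposited log2 fold change, p-value and adjusted p-value columns hold the authors' own comparison and were not used. The submitters' processing notes name HISAT2 2.0.5, featureCounts 1.5.0-p3 and hg18, a human build. Of 27202 genes, 97.2% have the coordinates of GENCODE mouse release 21 on GRCm38, the build used for coordinates here. The strand setting and the treatment of shared reads are not given in the sources used here.

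Genes with a mean of at least 10 were kept, transformed with a pseudocount of 1, and fitted by genotype in limma 3.58.1 (eBayes with trend and robust settings, R 4.3.3) with Benjamini-Hochberg adjustment. A run of the fit on simulated data gave every library the same spread, unlike the libraries here, and nothing is drawn from it. Levels per kb used the deposited gene length. Each value was a whole multiple of its library's smallest value (within 3.44e-06), so whole reads look recoverable. A unit check still refused 1 library, WT replicate 3, because its smallest value of 0.9985 lies close to 1. No count test was run for that reason.

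The members and lists were chosen with earlier results of these data known. Named were the members, Nedd4l, 23 companion genes fixed by role, the 2 genes with the smallest p in each of 6 pathway lists, the 3 nearest profiles of members spanning at least 1 log2 unit, and genes overlapping a member. Atoh1, Hoxd12, Jchain, S100a8, S100a9, Csf3r, Ptprc and Cd3e were named from the marker lists. Promoter sequences matched 3 of 10 members by symbol. Same-numbered libraries did not deviate together (correlations −0.029, −0.090 and −0.056). Plots used matplotlib 3.10.9 (Python 3.11.15).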

Additional observations from a re-analysis of the deposited data

How the results depend on the processing

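The lowest members were B3gnt6, at 18.8 to 38.3 normalized counts, and St6galnac1, at 1.11 to 4.94. The 9 tested members kept their direction under all 15 alternatives (14 for B3gnt6, which like Fut1 had no value under a filter at a mean of 50), and C1galt1c1 and Gcnt3 passed an adjusted p of 0.05 in limma only with array weights (2 members, where 1.61% of all tested genes were called higher). Adjusted p of C1galt1c1 ranged from 0.0124 to 0.486, of Gcnt3 from 0.0426 to 0.513 and of St3gal2 from 0.0507 to 0.511. The order of levels was the same over WT or cKO libraries alone and without a pseudocount. edgeR and DESeq2 were planned and not run.

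Genes higher in cKO numbered 7 with no filter on low values and 262 with array weights, and genes lower 23 and 369. Leaving out 1 library gave 0 to 70 higher and 0 to 52 lower. Of these, 70 and 52 came without cKO replicate 2, and 2 and 22 without cKO replicate 1. Nedd4l was at −1.09 with array weights (adjusted p = 0.0212 from limma) and −1.28 to −0.79 when 1 library was left out (adjusted p = 0.0130 without cKO replicate 2). The replicate block, which the numbers do not justify as a pairing, gave 0 higher and 0 lower genes and an adjusted p of 0.206 for C1galt1c1, and changed no call.

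With array weights the median was 0.12 for other chain extension and branching enzymes, 0.16 for mucins and −0.12 for crypt stem and cycling markers. Leaving out 1 library gave −0.18 to 0.12 for mucins, 0.030 to 0.085 for N-glycan processing enzymes and −0.61 to −0.16 for crypt stem and cycling markers. N-glycan enzymes were at 0.0027 after quantile normalization.

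Array weights also turned the sign of Galnt7 (0.037), B3gnt7 (0.033), Muc1 (0.24), Muc2 (0.027), Muc13 (0.078) and Spdef (−0.042). With 1 library left out, Galnt7 ran from −0.18 to 0.077, B3gnt7 ran from −0.39 to 0.21, Gcnt4 ran from −0.64 to 0.81, St3gal4 ran from −0.40 to 0.069, St6galnac6 ran from −0.092 to 0.017, Muc1 ran from −0.43 to 0.24, Muc2 ran from −0.23 to 0.16, Muc13 ran from −0.18 to 0.081, Spdef ran from −0.13 to 0.11, Agr2 ran from −0.057 to 0.16 and Cdx2 ran from −0.16 to 0.093. The causes were not tested.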
